A study of Rattus norvegicus with 12 samples.

Results

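Mitochondrial ribosomal protein genes were taken as the protein-coding genes of the deposited rat table whose symbols begin with Mrpl or Mrps followed by a number, with 1 gene for each symbol. There were 76 such members among 33744 genes, of which 46 are named for the large subunit (Mrpl) and 30 for the small subunit (Mrps). The study asked how machine perfusion, with or without oxygen, affects rat livers donated after circulatory death. RNA-seq was made from 3 livers of male Sprague Dawley rats in each of 4 groups, 1 library per liver. By the study's methods the rats were a few weeks old, and no genetic modification is described. All 12 livers had 30 min of warm ischemia, so no group is an untouched liver. The HOPE 1 h livers (hypothermic oxygenated machine perfusion) then had 3 h of cold storage and 1 h of perfusion with an oxygenated perfusate. The HMP 1 h livers (hypothermic machine perfusion) had 3 h of cold storage and 1 h of perfusion without added oxygen. The SCS 4 h livers (static cold storage) had 4 h of cold storage without perfusion, and the WI 30 min livers (warm ischemia) had no storage at all.

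The mitochondrial ribosome sits in the mitochondrial matrix and translates the few mRNAs of mitochondrial DNA, which encode core proteins of oxidative phosphorylation embedded in the inner membrane. Its rRNAs are transcribed from mitochondrial DNA, whereas its proteins are all nuclear encoded, made in the cytosol and imported. The small subunit binds mRNA and reads codons, and the large subunit forms peptide bonds and releases the growing chain towards the inner membrane. The roles given below are those known from the mammalian or bacterial ribosome. Hepatocytes are rich in mitochondria, and the genes for these proteins are expressed in nearly all cell types. In bulk tissue, fewer cells of a type and less RNA per cell cannot be told apart.

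Promoter sequences of the members are described before their expression values. RefSeq gives 250 bases before and 50 bases after the start of each gene in the build GRCr8, and 60 of the 76 members matched by symbol. Each promoter was searched on both strands for a site of nuclear respiratory factor 1 (NRF1, GCGC and TGCGC with any base between them), an ETS site of the kind bound by GABPA (CCGGAAG) and a site of YY1 (AAGATGGC), factors known for genes of mitochondrial proteins. No motif contains another. The ETS letters stood in 21 member promoters (35%), against 9.22% of all 27457 promoters of that length. The YY1 letters stood in 15 (25%), against 3.44% of all promoters, and most of them lay within the first bases of the transcript. The NRF1 letters stood in 9 (15%), against 4.71%. Among promoters of protein-coding genes alone, the shares were 11.2% for ETS, 3.92% for YY1 and 6.09% for NRF1. At least 1 of the motifs was found in 34 member promoters (56.7%), against 15.5% of all promoters and 18.8% of those of protein-coding genes. Promoters of nuclear oxidative phosphorylation genes (the respiratory chain and ATP synthase) held one in 52.8%, with NRF1 letters in 16.7%, and those of cytosolic ribosomal protein genes in 44.3%. In the large subunit 23 of 38 promoters held one (60.5%), and in the small subunit 11 of 22 (50%). These matches are letters only, and binding was not measured.

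The stretches below hold upstream matches of some of the members whose values are described later. Each is on the coding strand of its gene, with the motif in capitals. Mrpl23, Mrpl27 and Mrpl58 are the members with an ETS match among those leading the comparison of cold storage with warm ischemia, and Mrpl33 had the highest level per length. They lie at chr1:207116851-207116881 (+ strand), chr10:80092272-80092302 (+ strand), chr10:101145310-101145340 (+ strand) and chr6:30553988-30554008 (- strand) of GRCr8.
Mrpl23: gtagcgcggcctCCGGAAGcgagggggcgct
Mrpl27: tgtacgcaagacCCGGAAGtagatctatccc
Mrpl58: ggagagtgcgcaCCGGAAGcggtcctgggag
Mrpl33: gcgccacatgccCCGGAAGca

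Mrpl17 and Mrps18b carry the palindromic form of the NRF1 site, at chr1:169575733-169575766 (- strand) and chr20:2842974-2843005 (+ strand).
Mrpl17: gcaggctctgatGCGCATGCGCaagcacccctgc
Mrps18b: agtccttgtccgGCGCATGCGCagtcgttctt

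Mrpl36 and Mrpl53, which had no count in any liver, nonetheless hold such letters close upstream of their starts, at chr1:31795122-31795208 (- strand) and chr4:117172975-117173042 (+ strand). In Mrpl36 the capitals mark an ETS match and then a YY1 match on the other strand, and in Mrpl53 they mark ETS matches on both strands.
Mrpl36: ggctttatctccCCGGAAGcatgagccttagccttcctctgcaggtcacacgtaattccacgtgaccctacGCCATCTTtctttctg
Mrpl53: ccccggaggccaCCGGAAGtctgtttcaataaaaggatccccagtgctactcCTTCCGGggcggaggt

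Total counts per liver were 15262961 to 18343167. All 7 hepatocyte markers examined were detected, with summed levels of at least 139000 CPM (counts scaled to a common library size) in every liver, as the label liver requires. A pair of libraries stood apart: HMP liver 1 and HOPE liver 3 had scores of 1.07 and 0.83 over 28 markers of non-parenchymal cells, against -0.52 to 0.13 in the other livers, and 18.7% of the counts of HMP liver 1 fell on mitochondrial DNA, against 4.79% to 10.2% elsewhere. Their part in the results below was not tested beyond the values given without them. Of the 33744 genes, 13687 passed the filter on low counts and were tested, among them 73 members, 44 of the large and 29 of the small subunit.

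Levels between genes were compared as deposited FPKM, that is counts scaled by gene length and library size. The median member had a mean FPKM of 20.7 over the 12 livers, against 4.54 for all tested genes, 110 for nuclear genes of oxidative phosphorylation and 198 for cytosolic ribosomal proteins. The large subunit members had a median of 21.8 FPKM and the small subunit members 16.7 FPKM, with quartiles of 9.67 to 30.5 and 9.8 to 25 FPKM. The subunits overlapped widely in level. The highest member was Mrpl33, a small protein of the large subunit (chromosome 6 of Rnor_6.0, 26130488 to 26138414), at 105 ± 9.6 FPKM (SD, n = 12). Next came Mrps34, a small subunit protein without a bacterial counterpart, at 61.5 ± 11 FPKM, Mrpl17 at 58.2 ± 6.92 FPKM and Mrpl43 at 58.1 ± 6.44 FPKM. Mrps34, Mrpl17 and Mrpl43 did not differ beyond the spread of their livers. The gene length of Mrpl33, 236 bases, was the shortest of the members, and FPKM divide by length. By counts its group means were 23.6 to 25.5 CPM, below those of Mrpl15 at 54.3 to 75.3 CPM. Mrpl47 was the lowest tested member, at 2.42 ± 0.414 FPKM.

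**Figure D1:**
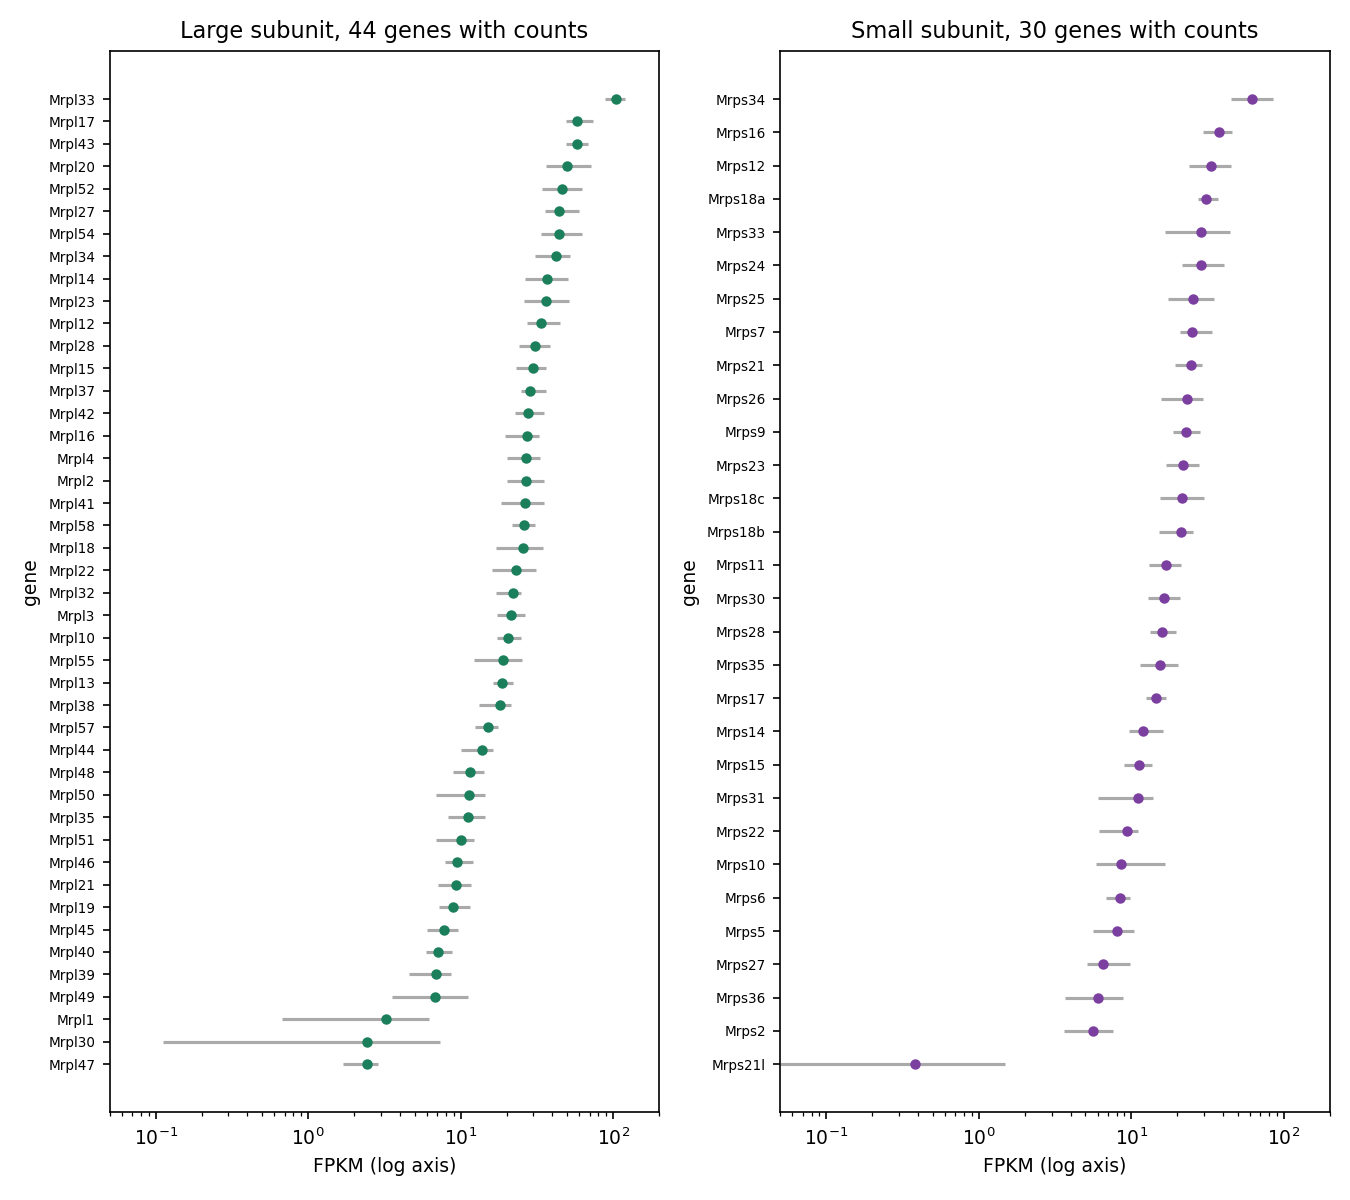
Mean deposited FPKM of each member with counts over the 12 livers (points, log axis in FPKM), with grey lines from the lowest to the highest liver, large subunit on the left and small subunit on the right. Most members lie near the median of 20.7 FPKM, Mrpl33 stands highest at 105 FPKM, Mrpl30 has the longest line of the tested members, and the line of Mrps21l is clipped at the axis because some of its livers had no count.

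Of the 76 members, 3 were not tested. Mrpl36 (chromosome 1, 31261370 to 31262466) and Mrpl53 (chromosome 4, 114807765 to 114808652) had 0 counts in all 12 livers, where 3 counts, the limit that a count of 0 allows, correspond to 0.164 to 0.197 CPM of a library's total. Mrps21l (chromosome 18, 76317134 to 76317436) had 21 counts in all. Whether such values come from the tissue or from the gene models was not tested. Among the tested members, 12 overlap another gene, 11 of them only a gene on the opposite strand. Since no source used here tells whether strand was used in the counting, the values of Mrpl49 (698 counts, overlapping Syvn1 with 13910), Mrpl47 (951 counts, overlapping Actl6a with 2553), Mrpl21 and Mrpl30 are uncertain.

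Across the 4 groups, the members were on the whole highest in SCS 4 h and lowest in the perfused livers. A score, the mean over the 73 members of log2 CPM centred on the 12 livers, was -0.10, -0.07 and -0.13 in the HOPE 1 h livers and -0.26, -0.11 and -0.10 in the HMP 1 h livers. In SCS 4 h it was 0.28, 0.20 and 0.06, and in WI 30 min 0.18, 0.06 and 0.00. All 6 perfused livers lay below all 6 unperfused livers, while the ranges of HOPE 1 h and HMP 1 h overlapped, as did those of SCS 4 h and WI 30 min. The group mean of 61 members was highest in SCS 4 h, that of 8 in WI 30 min, that of 4 in HOPE 1 h and that of 0 in HMP 1 h. HMP 1 h had the lowest mean of 41 members, HOPE 1 h of 31 and WI 30 min of 1. Single livers contributed unevenly: 25 members had their highest value in SCS liver 1 and 23 in SCS liver 2, but 6 in SCS liver 3, and 26 had their lowest value in HMP liver 1. As a share of all counts, the members took 0.159%, 0.162% and 0.172% of the HOPE 1 h libraries, 0.149%, 0.153% and 0.153% of HMP 1 h, 0.224%, 0.22% and 0.171% of SCS 4 h, and 0.203%, 0.186% and 0.181% of WI 30 min libraries. By this measure SCS liver 3 fell within the range of the HOPE 1 h livers.

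**Figure D2:**
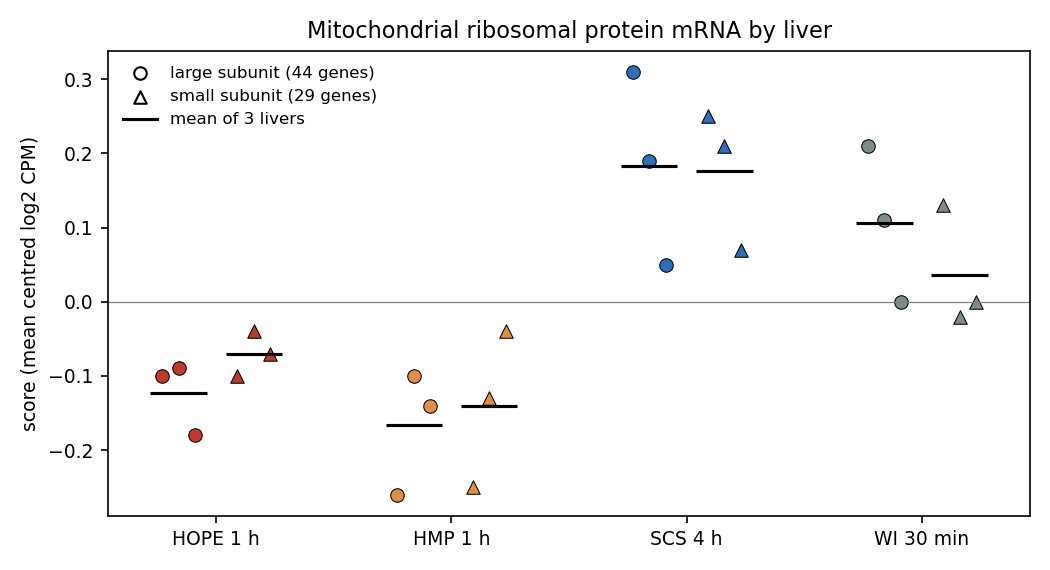
Scores of the large subunit (circles, 44 genes) and the small subunit (triangles, 29 genes) in each liver, as mean log2 CPM centred on the 12 livers, with bars at the mean of 3 livers. Both subunits lie below 0 in all HOPE 1 h and HMP 1 h livers and above 0 in all SCS 4 h livers, and the WI 30 min livers spread from slightly below 0 to 0.21.

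Large and small subunit members had similar scores in each group. The large subunit score averaged -0.12 ± 0.0494 in HOPE 1 h, -0.17 ± 0.0874 in HMP 1 h, 0.18 ± 0.129 in SCS 4 h and 0.11 ± 0.105 in WI 30 min (SD, n = 3 each). The small subunit score averaged -0.07 ± 0.0274 for HOPE 1 h livers, -0.14 ± 0.107 for HMP 1 h, 0.17 ± 0.0921 for SCS 4 h and 0.04 ± 0.0825 for WI 30 min livers. The difference of large minus small was -0.05 ± 0.0553 in HOPE 1 h, -0.02 ± 0.0662 in HMP 1 h, 0.01 ± 0.0464 in SCS 4 h and 0.07 ± 0.0607 in WI 30 min, which is about the size of the spread between livers. Mrps30 and Mrps18a are named for the small subunit but belong to the large subunit in the structure of the mammalian mitochondrial ribosome, and Mrps36 is now known as a subunit of the alpha-ketoglutarate dehydrogenase complex. With Mrps30 and Mrps18a counted with the large subunit and Mrps36 set aside, the difference was -0.05 for HOPE 1 h, -0.03 for HMP 1 h, 0.01 for SCS 4 h and 0.07 for WI 30 min.

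Members also varied together from liver to liver. Pearson's r of each member with the mean of the other members over the 12 livers had a median of 0.71, and 61 of 73 (83.6%) were above 0.5. The same r was above 0.5 for 14.4% of all tested genes, for 34.2% of cytosolic ribosomal protein genes and for 85.5% of the nuclear oxidative phosphorylation genes. These are descriptions, since the 12 livers share the group differences and the library scaling. Mrpl35 was closest to the rest, with an r of 0.91. Mrpl47, Mrps10 and Mrps6 were the members below 0, at -0.28, -0.10 and -0.06. Mrps10, a head protein of the small subunit, had 20.5 CPM in SCS liver 3. The other SCS 4 h livers had 7.57 and 7.22 CPM. Mrpl30 varied widely within HOPE 1 h (0.525 to 18.2 CPM) and SCS 4 h (0.327 to 17.2 CPM). Its HMP 1 h livers (1.32 to 4.75 CPM) nonetheless lay below its WI 30 min livers (5.92 to 21.5 CPM). Mrps31 and Mrps33 also varied widely within groups, with Mrps31 at 9.54 CPM in HMP liver 1 and 15.3 to 21.5 CPM in all other livers.

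**Figure D3:**
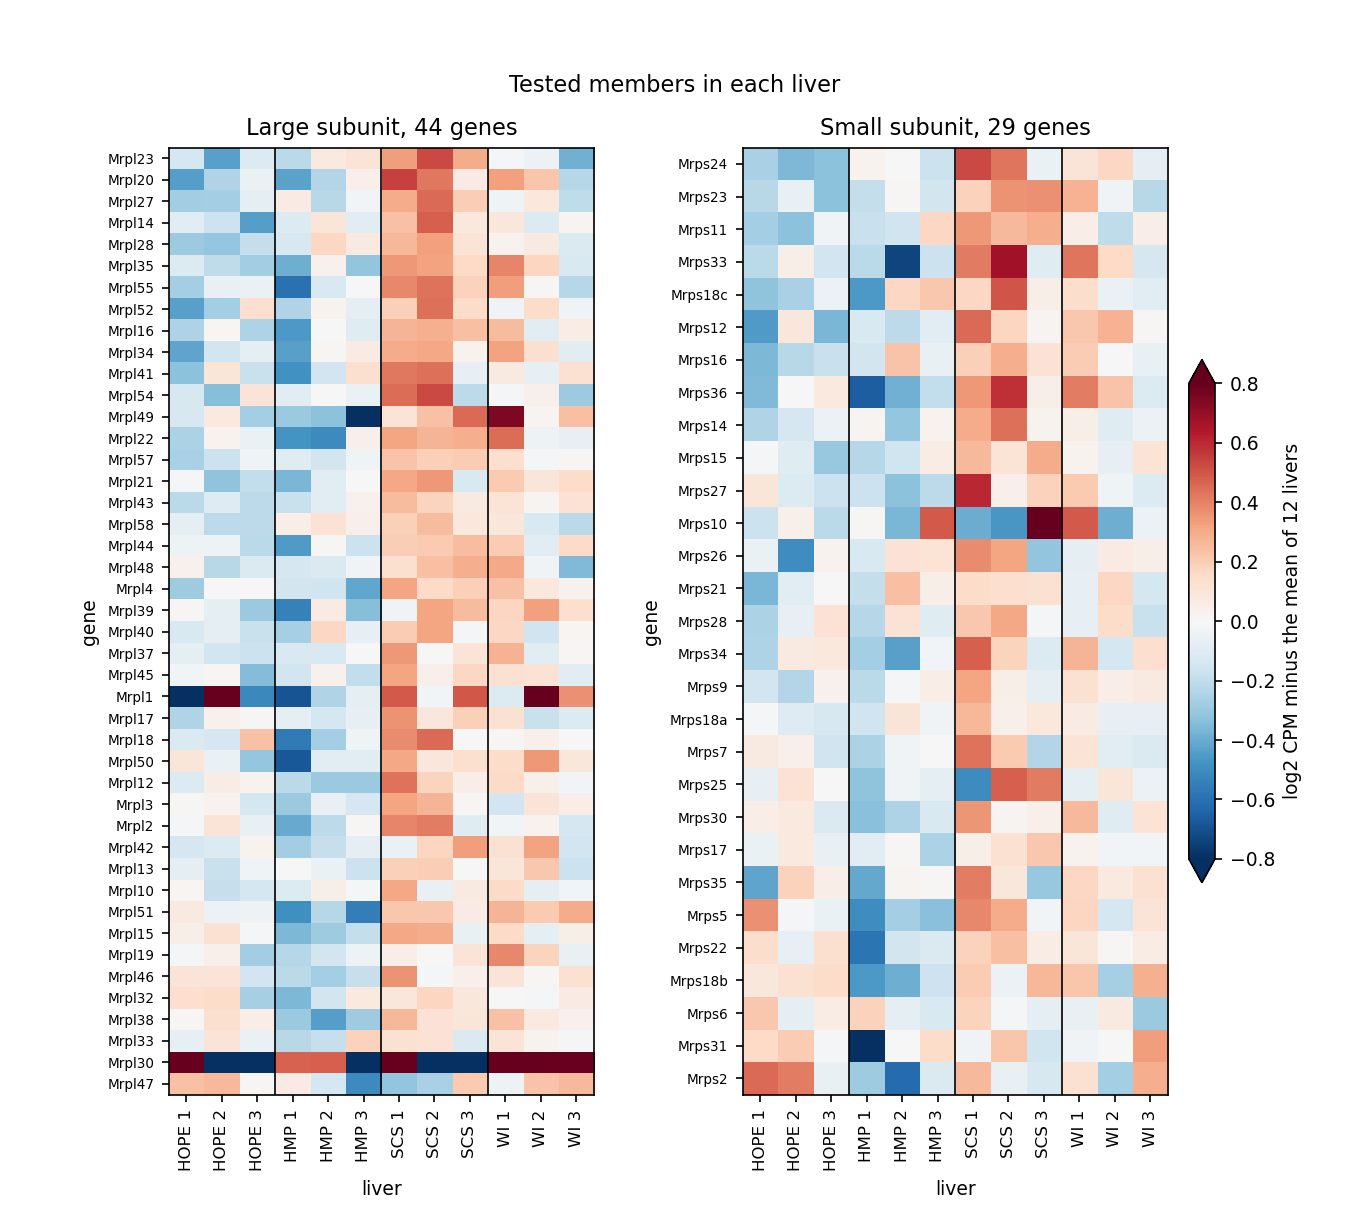
Log2 CPM of each tested member in each liver minus its mean over the 12 livers (colour, red above and blue below the mean), large subunit left and small subunit right, ordered by the log2 fold change of HOPE 1 h over SCS 4 h. Blue prevails in the HOPE 1 h and HMP 1 h livers and red in SCS livers 1 and 2, while Mrpl30, Mrpl1 and Mrps10 vary widely within some groups.

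HOPE 1 h was first set against SCS 4 h, which has the same total time after warm ischemia but neither flow nor oxygen. Of the 73 tested members, 68 had a negative log2 fold change and 5 a positive one, where 44.9% of all tested genes were negative. The median member was at -0.29, against 0.04 for all tested genes, and members ranged from -0.64 to 0.28. By edgeR's quasi-likelihood test 0 members passed an adjusted p of 0.05 (the lowest was 0.287), as did 0% of all genes. At an unadjusted p under 0.05, edgeR placed 27 members lower in HOPE 1 h (6.84% of all genes) and 0 higher, and in 32 members every HOPE 1 h liver lay below every SCS 4 h liver (10.3% of all genes). The large subunit had 42 of 44 members negative with a median of -0.30, and the small subunit 26 of 29 with a median of -0.24. DESeq2 called 4 members lower in HOPE 1 h, Mrps24, Mrpl27, Mrpl28 and Mrpl23, at 1.6% of the genes it tested. Without HMP liver 1 and HOPE liver 3 the median was -0.29, with 67 members negative.

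Mrps24, at the mRNA entrance of the small subunit (ENSRNOG00000011979, chromosome 14, 85947765 to 85951899), had 20.7, 19.3 and 19.7 CPM in HOPE 1 h, 25.3, 24.7 and 22 CPM in HMP 1 h, 35.8, 33.4 and 23.9 CPM in SCS 4 h, and 26.7, 27.8 and 23.6 CPM in WI 30 min. Its 3 HOPE 1 h livers were the lowest of all 12. The log2 fold change of HOPE 1 h over SCS 4 h was -0.64 (SE 0.15, edgeR adjusted p = 0.287). Mrpl23, at the exit of the peptide tunnel (ENSRNOG00000020354, chromosome 1, 215701544 to 215709313), had 17.5, 14.3 and 17.9 CPM in HOPE 1 h, 16.6, 20.4 and 20.9 CPM in HMP 1 h, 24.4, 27.9 and 23.8 CPM in SCS 4 h, and 19.1, 18.7 and 14.8 CPM in WI 30 min. Here the SCS 4 h livers stood above all others, and the remaining groups overlapped. Its log2 fold changes were -0.61 for HOPE 1 h over SCS 4 h (SE 0.151, edgeR adjusted p = 0.287) and 0.53 for SCS 4 h over WI 30 min (SE 0.151, edgeR adjusted p = 0.962).

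Mrpl27, whose bacterial counterpart reaches the peptidyl transferase centre (chromosome 10, 82375572 to 82381332), had 25, 25.2 and 28.9 CPM in HOPE 1 h, 31.8, 26.1 and 30.0 CPM in HMP 1 h, 37.3, 41.7 and 34.9 CPM in SCS 4 h, and 29.7, 32.3 and 26.4 CPM in WI 30 min. As for Mrpl23, the SCS 4 h livers were the highest, and the log2 fold change of HOPE 1 h over SCS 4 h was -0.53 (SE 0.127, edgeR adjusted p = 0.287). Mrpl28, a large subunit protein (chromosome 10, 15495684 to 15498295), had 19.3, 19.1 and 20.7 CPM in HOPE 1 h, 21.6, 26.6 and 24.9 CPM in HMP 1 h, 28.5, 29.7 and 25.4 CPM in SCS 4 h, and 24.1, 24.9 and 21.8 CPM in WI 30 min. Its HOPE 1 h livers lay below every other liver, HMP 1 h included. Mrpl14, which lies at the interface of the subunits (chromosome 9, 17687622 to 17698569), averaged 27.6 ± 3.47 CPM in HOPE 1 h and 39.1 ± 5.46 CPM in SCS 4 h (SD, n = 3 each), without overlap of the livers.

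**Figure D4:**
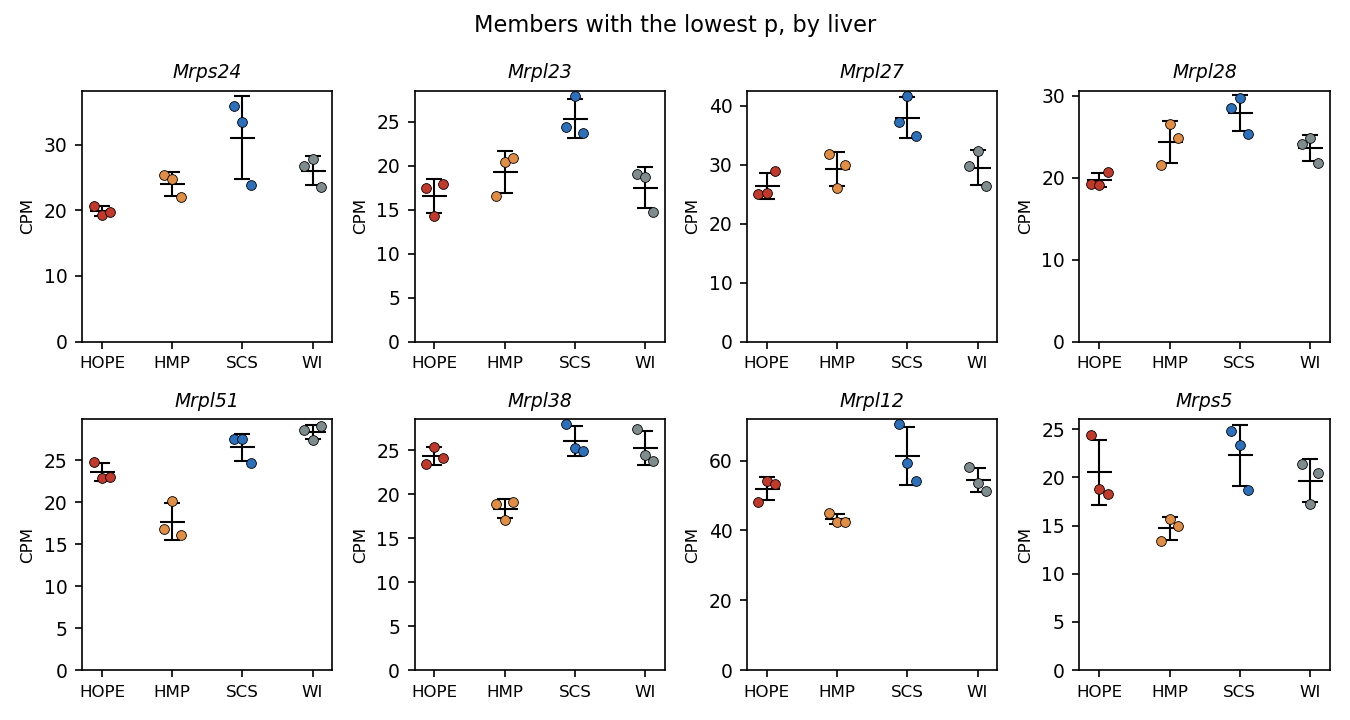
CPM in each liver (points) of 8 members, with the mean and SD of 3 livers, by group, on axes that start at 0. The 8 were picked from the members with the lowest p in the comparisons, of which others are not shown. Mrps24, Mrpl23, Mrpl27 and Mrpl28 are lowest in HOPE 1 h or highest in SCS 4 h, and Mrpl51, Mrpl38, Mrpl12 and Mrps5 are lowest in HMP 1 h.

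HMP 1 h was set against the same SCS 4 h livers, so the 2 comparisons share their 3 cold-stored livers and their values stand side by side without a test of likeness. All 73 tested members had a negative log2 fold change (45.8% of all genes), with a median of -0.35, against 0.04 for all genes, and a range of -0.78 to -0.04. The median was -0.36 in the large and -0.33 in the small subunit. By edgeR 0 members and 0% of all genes passed the adjusted threshold, with a lowest adjusted p of 0.088 among members. At an unadjusted p under 0.05, edgeR placed 41 members lower (8.56% of all genes), and 41 had no overlap of livers (10.6% of all genes). DESeq2 called 7 members lower in HMP 1 h (3.97% of the genes it tested), which were Mrpl51, Mrpl38, Mrpl12, Mrpl15, Mrpl4, Mrps5 and Mrps36. Without HMP liver 1 and HOPE liver 3 the median was -0.28, with 71 members negative.

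Mrpl51, a large subunit protein without a bacterial counterpart (ENSRNOG00000019165, chromosome 4, 157705790 to 157708748), had 24.8, 22.9 and 23.0 CPM in HOPE 1 h, 16.8, 20.2 and 16.1 CPM in HMP 1 h, 27.5, 27.5 and 24.7 CPM in SCS 4 h, and 28.6, 27.4 and 29.1 CPM in WI 30 min. The HMP 1 h livers were below all others, without overlap. Its log2 fold change was -0.59 for HMP 1 h over SCS 4 h (SE 0.118, edgeR adjusted p = 0.088), -0.68 for HMP 1 h over WI 30 min (SE 0.118, edgeR adjusted p = 0.0903) and 0.42 for HOPE 1 h over HMP 1 h (SE 0.118, edgeR adjusted p = 0.558). Mrpl38, another such protein (chromosome 10, 104682374 to 104689178), had 23.4, 25.4 and 24.1 CPM in HOPE 1 h, 18.9, 17.1 and 19.1 CPM in HMP 1 h, 28.0, 25.2 and 24.9 CPM in SCS 4 h, and 27.4, 24.5 and 23.8 CPM in WI 30 min. It too was lowest in the 3 HMP 1 h livers, and HOPE 1 h overlapped with SCS 4 h and WI 30 min. The log2 fold change of HMP 1 h over SCS 4 h was -0.50 (SE 0.112, edgeR adjusted p = 0.0909).

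Mrpl12, the protein of the flexible stalk that recruits translation factors (chromosome 10, 109658032 to 109662535), had 48.3, 54.3 and 53.3 CPM in HOPE 1 h, 44.9, 42.5 and 42.4 CPM in HMP 1 h, 70.5, 59.2 and 54.2 CPM in SCS 4 h, and 58.1, 53.7 and 51.4 CPM in WI 30 min. Again every HMP 1 h liver lay below every other liver. Mrpl15, Mrpl4 and Mrps5, conserved from bacteria, had log2 fold changes of -0.47, -0.46 and -0.60 for HMP 1 h over SCS 4 h, all without overlap of livers. Mrps36 was at -0.75 (SE 0.196, edgeR adjusted p = 0.125), with 12 ± 1.91 CPM in HMP 1 h and 20.1 ± 3.74 CPM in SCS 4 h (SD, n = 3 each).

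HOPE 1 h against HMP 1 h asks what oxygen in the perfusate adds, and here the members did not lie on one side. Of 73, 31 were negative (51% of all genes) and 42 positive, with a median of 0.06, against -0.01 for all genes. The large subunit was at 0.05 and the small subunit at 0.07. The side of the median rested on HMP liver 1: without it the median was -0.04, and without HMP liver 1 and HOPE liver 3 it was -0.02. By edgeR 0 members and 0% of all genes passed the adjusted threshold, DESeq2 called 0 members, and an unadjusted p under 0.05 was reached by 8 higher (3.96% of all genes) and 1 lower member (3.52%). In 11 members every HOPE 1 h liver lay above every HMP 1 h liver (6.22% of all genes), and in 4 every one lay below (4.89%). Beside Mrpl38 and Mrpl51, the lowest p-values were those of Mrps2, Mrps5 and Mrps18b of the small subunit. Mrps18b (chromosome 20, 3344870 to 3350927) had 49.5, 50.5 and 51.5 CPM in HOPE 1 h and 33.7, 35.4 and 41.5 CPM in HMP 1 h, which do not overlap, with a log2 fold change of 0.45 (SE 0.152, edgeR adjusted p = 0.558). Mrps2 (chromosome 3, 7051695 to 7058521) had 31.3, 30.3 and 21.9 CPM in HOPE 1 h and 18.7, 14.9 and 21.1 CPM in HMP 1 h, at 0.61 (SE 0.198, edgeR adjusted p = 0.558). The member lower at an unadjusted p was Mrpl28, at -0.31 (SE 0.121, edgeR adjusted p = 0.621).

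**Figure D5:**
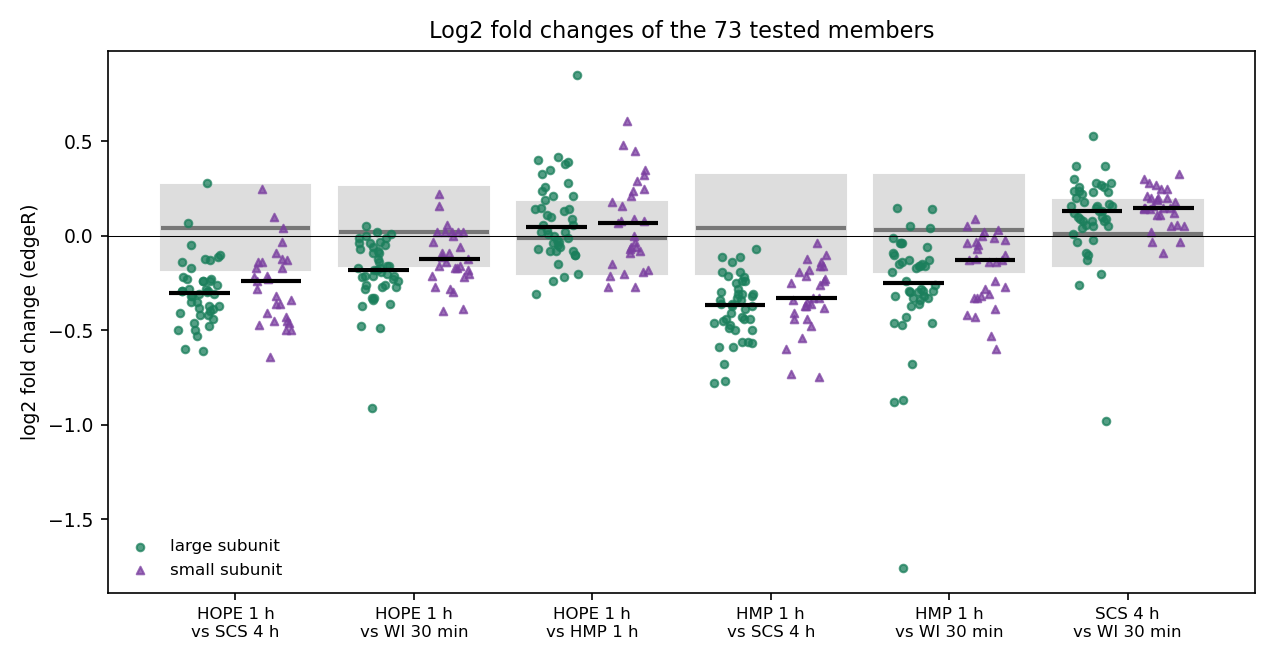
Log2 fold change of each tested member, first-named group over second, in the 6 pairs of groups (circles, large subunit; triangles, small subunit), with black bars at the median of each subunit, and grey boxes and lines for the quartiles and median of all 13687 tested genes. Members lie below the grey medians in HOPE 1 h and HMP 1 h against SCS 4 h, at -0.29 and -0.35, and the lone points at -1.76, -0.98 and -0.91 are Mrpl30.

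Against WI 30 min, which ended before any cold storage, the perfused groups had member medians closer to 0 than against SCS 4 h. All 5 red blood cell markers were detected, with summed levels of 1190 to 1830 CPM in HOPE 1 h, 263 to 2550 CPM in HMP 1 h, 568 to 1790 CPM in SCS 4 h and 3400 to 4590 CPM in WI 30 min, so the WI 30 min livers held more of these transcripts than all other livers, and their part in the comparisons with WI 30 min was not tested. In HOPE 1 h, 62 of 73 members were negative (46.7% of all genes), with a median of -0.16, against 0.02 for all genes, -0.18 in the large and -0.12 in the small subunit. By edgeR 0 members and 0% of all genes passed the adjusted threshold and DESeq2 called 0 members, while 6 members were lower at an unadjusted p under 0.05 (4.16% of all genes) and 10 had no overlap (7.42%). The lowest p-values were those of Mrps24, Mrpl43, Mrps12, Mrpl51 and Mrpl35. Mrps12, of the decoding centre (chromosome 1, 86920680 to 86923575), had 17.2, 25.1 and 18.3 CPM in HOPE 1 h, 21.7, 20.4 and 22.2 CPM in HMP 1 h, 32.3, 26.6 and 24.0 CPM in SCS 4 h, and 27.4, 28.6 and 23.7 CPM in WI 30 min. HOPE liver 2 overlapped with the unperfused livers, and the log2 fold change of HOPE 1 h over WI 30 min was -0.40 (SE 0.164, edgeR adjusted p = 0.565). Mrpl43, among the members with the highest level (chromosome 1, 264755538 to 264756546), had 40.0, 43.4 and 40.3 CPM in HOPE 1 h and 50.3, 47.2 and 50.5 CPM in WI 30 min, a log2 fold change of -0.26 (SE 0.101, edgeR adjusted p = 0.559). Mrpl35 (chromosome 4, 99738792 to 99746560) averaged 15.6 ± 0.866 CPM in HOPE 1 h and 19.9 ± 3.49 CPM in WI 30 min (SD, n = 3 each).

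In HMP 1 h against the same WI 30 min livers, 65 of 73 members were negative (46.6% of all genes), with a median of -0.17, against 0.03 for all genes. The large subunit was at -0.25 and the small subunit at -0.13. By edgeR 0 members and 0% of all genes passed the adjusted threshold, 17 members were lower at an unadjusted p under 0.05 (6.6% of all genes) and 22 had no overlap (8.45%). DESeq2 called Mrpl51 and Mrpl38, 2 members at 2.96% of the genes it tested. Without HMP liver 1 and HOPE liver 3 the median was -0.11.

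SCS 4 h against WI 30 min shows the members over cold storage alone. Of 73 members, 62 were positive and 11 negative (47.7% of all genes were negative), with a median of 0.15, against 0.01 for all genes, 0.13 in the large and 0.15 in the small subunit. Without SCS liver 1, 20 members were negative and the median was 0.10. By gene length, the shorter members were at a median of 0.18 and the longer ones at 0.12. All genes in the same length range were at 0.15 in the shorter and 0.02 in the longer part, and the part of length was not tested. By edgeR 0 members and 0% of all genes passed the adjusted threshold, with a lowest adjusted p of 0.962 among members, and DESeq2 called 0 members. An unadjusted p under 0.05 was reached by 4 higher (2.77% of all genes) and 0 lower members (2%), and in 8 every SCS 4 h liver lay above every WI 30 min liver (7.13% of all genes). The lowest p-values were those of Mrpl23, Mrpl27, Mrps11, Mrpl58 and Mrpl17. Mrps11 (chromosome 1, 140477868 to 140487248) had 19.1, 17.9 and 18.3 CPM in SCS 4 h and 15.5, 13 and 15.5 CPM in WI 30 min, without overlap. Mrpl58, a peptidyl-tRNA hydrolase that became part of the large subunit (chromosome 10, 103956019 to 103962515), had 20.2, 18.5 and 18.5 CPM in HOPE 1 h, 22.2, 23.2 and 22 CPM in HMP 1 h, 24.4, 25.5 and 22.7 CPM in SCS 4 h, and 22.8, 19.6 and 18.4 CPM in WI 30 min, so that SCS 4 h and WI 30 min overlapped slightly. Mrpl17 had 63.0 ± 5.96 CPM in SCS 4 h and 52.5 ± 5.89 CPM in WI 30 min (SD, n = 3 each).

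Over the 4 groups together, edgeR called 0 members and 0% of all genes at the adjusted threshold (lowest adjusted p of 0.138 among members), and 29 members had an unadjusted p under 0.05 (12.3% of all genes). DESeq2 called 5 members, Mrpl51, Mrpl38, Mrpl12, Mrpl23 and Mrpl27, at 4.04% of the genes it tested. All 5 belong to the large subunit, but a difference between the subunits in this count was not tested. Mrpl45, which anchors the ribosome at the inner membrane (chromosome 10, 85257876 to 85269806), averaged 15.9 ± 2.06 CPM in HOPE 1 h, 16 ± 1.37 CPM in HMP 1 h, 19.5 ± 1.86 CPM in SCS 4 h and 17.8 ± 1.47 CPM in WI 30 min (SD, n = 3 each). Its unadjusted edgeR p over the 4 groups was 0.166. Mrpl33, the member with the highest FPKM, averaged 24.7 CPM in HOPE 1 h, 23.6 CPM in HMP 1 h, 25.5 CPM in SCS 4 h and 25.3 CPM in WI 30 min and was among those closest to even across the groups.

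Members were also compared by evolutionary origin and by gene length. Members with a bacterial homologue (41 tested) and those without one (29 tested) had medians of -0.29 and -0.30 for HOPE 1 h over SCS 4 h, and of -0.34 and -0.36 for HMP 1 h over SCS 4 h. Across members, the log2 fold change of HOPE 1 h over SCS 4 h had a Spearman's rho of 0.40 with gene length, against 0.26 across all tested genes, and the shorter members were at a median of -0.37 and the longer ones at -0.24. All genes in the same length range had medians of -0.16 in the shorter and 0.03 in the longer part. For HMP 1 h over SCS 4 h rho was -0.18 across members, of the opposite sign to the 0.20 across all genes. For HOPE 1 h over HMP 1 h it was 0.43, and for HMP 1 h over WI 30 min -0.38, each against 0.05 across all genes. Genes are not independent replicates, and these values describe the libraries only. The part of length in the fold changes was not tested.

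The other genes of mitochondrial translation were read in the same comparison of HOPE 1 h with SCS 4 h, where edgeR called 0 of them and placed 6.84% of all genes lower at an unadjusted p under 0.05. DESeq2 called 1 of them, Ears2, and 1.6% of all genes it tested. Of 15 translation factors 14 were negative with a median of -0.21, and 4 were lower at an unadjusted p under 0.05, namely Guf1 (-0.41), Tsfm (-0.55), the elongation factor gene Tufm (-0.32) and Gfm1 (-0.34). Of 18 aminoacyl-tRNA synthetase and related genes 13 were negative with a median of -0.27. Ears2, the mitochondrial glutamyl-tRNA synthetase, was at -0.66, with 8.55 ± 0.566 CPM in HOPE 1 h and 13.5 CPM in SCS 4 h (edgeR adjusted p = 0.268), and 4 genes of this list were lower at an unadjusted p under 0.05. Of 22 ribosome assembly factors 15 were negative with a median of -0.24 and 6 were lower at an unadjusted p under 0.05, among them Malsu1, in human cells a partner of Mrpl14, at -0.45, Eral1, a chaperone of the small rRNA, at -0.36, and Rpusd4 at -0.47, while Ngrn was at 0.40. The 5 proteins of the ribosome with other symbols were mixed, with Gadd45gip1 at -0.44, Chchd1 at -0.39, Ptcd3 at -0.05, Aurkaip1 at 0.07 and Dap3 at 0.11. Of 9 regulators 2 were negative with a median of 0.07, with Gabpa at -0.02, Yy1 at 0.06 and Nrf1 at 0.16, and of 9 genes of mitochondrial transcription and replication 5 were negative.

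The nuclear genes of oxidative phosphorylation had a median of -0.45 in the same comparison, with 76 of 76 tested negative, and cytosolic ribosomal protein genes a median of -0.25, with 72 of 76 negative. DESeq2 called 19 of the oxidative phosphorylation and 2 of the cytosolic ribosomal protein genes, where it called 1.6% of all genes it tested. For SCS 4 h over WI 30 min the members had a median of 0.15, which was below both lists, with 0.28 for oxidative phosphorylation (76 of 76 positive) and 0.25 for cytosolic ribosomal proteins (71 of 76 positive). Against WI 30 min, the medians of HOPE 1 h were -0.16 for members, -0.15 for the oxidative phosphorylation list and 0.00 for cytosolic ribosomal proteins, and those of HMP 1 h were -0.17, -0.08 and 0.05. The differences between lists were not tested. The larger mitochondrial rRNA (MT, 1094 to 2664) had 234, 297 and 171 CPM in HOPE 1 h, 334, 122 and 200 CPM in HMP 1 h, 62.6, 152 and 197 CPM in SCS 4 h, and 127, 157 and 103 CPM in WI 30 min, with overlap between HOPE 1 h and SCS 4 h and the highest value in HMP liver 1. How these rRNAs pass the mRNA library preparation is not known, so their level next to the proteins was not read.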

How the data were processed

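Per the file headers and the methods, the authors deposited raw counts per gene and FPKM for each of the 12 livers, aligned with Hisat2 and assembled with StringTie, in the build Rnor_6.0 of the submitters' processing notes. No source used here gives the counting tool or its use of strand. The deposited FPKM equal the counts divided by gene length and a constant per library, and were used for levels only. Deposited means per comparison, log2 fold changes, p-values and adjusted p-values were left aside. Of the 24 columns with a value per liver, 0 could not be matched by name.

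Counts of the 13687 genes kept by filterByExpr were fitted with edgeR 4.0.16 in R 4.3.3 (TMM normalization, quasi-likelihood F test, 1 model with a mean per group, 8 residual degrees of freedom), and p-values were adjusted by Benjamini-Hochberg over all of them, with calls under 0.05. CPM use TMM library sizes and log2 CPM a prior count of 2. Floors and spreads cover counting error and these 12 livers only: the total count per liver was 15262961 to 18343167. The members, the related lists and the rules were chosen with earlier results of these data known. Members named are the 5 with the lowest unadjusted p in 4 pairs of groups and over the 4 groups. Also named are the 4 highest and 4 lowest by FPKM, and the 4 most variable within groups among those averaging at least 5 CPM. Others are those that failed the filter, those called by DESeq2, and some chosen for role or place in the structure. Of each related list, up to 4 with the lowest p are named. Ptcd3, Gabpa, Yy1, Mrpl1, Mrpl21, Mrpl49 and Mrps6 were chosen with their values in view. The sorting by bacterial homologue was set by hand, and members without a clear place were left out. Other settings tried were a block for the replicate number, fits on the compared groups alone, all genes unfiltered, RLE size factors, DESeq2 1.42.0, other scores, and leaving out livers.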

Additional observations from a re-analysis of the deposited data

How the results depend on the processing

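Medians of the member log2 fold changes kept their sign with a replicate block, on the compared groups alone, unfiltered, with RLE size factors, with DESeq2 and with total counts in place of TMM, the last chosen after seeing the data. Leaving out each liver in turn gave medians of -0.32 to -0.26 for HOPE 1 h over SCS 4 h, -0.19 to -0.12 for HOPE 1 h over WI 30 min, -0.41 to -0.28 for HMP 1 h over SCS 4 h, -0.26 to -0.11 for HMP 1 h over WI 30 min (-0.26 without HMP replicate 3), 0.10 to 0.19 for SCS 4 h over WI 30 min and -0.04 to 0.10 for HOPE 1 h over HMP 1 h, where -0.04 came without HMP replicate 1. Without HMP liver 1 and HOPE liver 3 the last was -0.02, and the cause was not tested. Members called by edgeR were 0 without any liver. DESeq2 called 4 members in HOPE 1 h against SCS 4 h, where it called 1.6% of the genes it tested. It called 7 in HMP 1 h against SCS 4 h (3.97%) and 2 in HMP 1 h against WI 30 min (2.96%). Over the 4 groups it called 5 (4.04%). Total counts in place of TMM called 1 member in HMP 1 h against WI 30 min, Mrpl51, with a member median of -0.28. With that setting the median of all tested genes was -0.09 in this comparison, against 0.03 with TMM. The share of all genes called with total counts is not given here, so the call of Mrpl51 has no background beside it. Without SCS replicate 1, 20 members were negative in SCS 4 h against WI 30 min. The main fit did not pair livers across groups. Deviations of livers with the same number were correlated at -0.189 (HOPE and HMP livers 3) to 0.143 (SCS and WI livers 3). With 3 livers a group, these values cannot tell whether livers of the same number were handled together. With the replicate block, 0 members were called, and the medians were -0.30 for HOPE 1 h over SCS 4 h, 0.03 for HOPE 1 h over HMP 1 h and 0.14 for SCS 4 h over WI 30 min. Depth and 3 livers a group limit what small differences could be detected.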
